A study of Homo sapiens with 6 samples.

Results

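The clustered histone genes are protein-coding genes for the histones H1, H2A, H2B, H3 and H4, most of them replication-dependent. They lie together in the HIST1, HIST2 and HIST3 clusters, except for HIST4H4, the 1 member of HIST4, on chromosome 12. The genes were chosen by symbol, as every protein-coding gene whose name began with HIST1H to HIST4H, which gave 49 of the 30015 genes in the table. Of these, 5 encode H1, 8 encode H2A, 14 encode H2B, 11 encode H3 and 11 encode H4. The rule uses symbols and no measured value, although it was set with earlier results of these data known. The question was how their mRNAs differed between control and EZH2 knockdown cells. EZH2 is the catalytic subunit of the Polycomb complex that methylates lysine on histone H3.

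HMV-II is a cell line from a human mucosal melanoma of the vagina. Its RNA was sequenced in 3 Vector libraries (genotype WT, scrambled control shRNA) and 3 shEZH2 libraries (genotype EZH2 knockdown). Both groups had no other treatment. Per the study's methods, shRNA was delivered with lentiviral particles and stable cells were selected with puromycin. The table heads the knockdown group sh1, so the data hold 1 knockdown line, and an effect of that shRNA on other targets cannot be told apart from the loss of EZH2. Nothing in the labels says that replicates came from separate cultures, so p-values measure only the spread between libraries.

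EZH2 itself had 483, 437 and 552 normalized counts (reads divided by one size factor per library) in Vector replicates 1 to 3 and 237, 247 and 225 in shEZH2 replicates 1 to 3. The knockdown libraries were all below the Vector ones, and the log2 fold change was -1.04 ± 0.14 (± gives limma's standard error, adjusted p = 0.0142, exact two-sided permutation p = 0.1, the smallest that 3 against 3 libraries can give), or -1.12 ± 0.13 without Vector replicate 2. Over all alternative fits (other tools and settings in limma, edgeR and DESeq2, and single libraries left out) its adjusted p ran from 5.94e-08 to 0.128. Depth ran from 13400290 to 19128939 reads. The 8 melanocyte lineage genes on a marker list summed to 75515 to 100744 normalized counts, with PMEL the highest (48607 to 67512) and MLANA and TYRP1 the lowest in Vector replicate 2 (197 and 257, below the 421 of the epithelial gene CDH1). Of the 8, limma called TYRP1 (log2 fold change 1.68) and MLANA (0.88) higher in shEZH2 and TYR lower (-0.97), and without Vector replicate 2 MLANA (0.39) was not called. EPCAM, PTPRC and PECAM1 had 0 to 11.6, and the summed epithelial, fibroblast, leukocyte and endothelial marker lists stayed at or below 437 in every library. Other members of these lists were higher. The fibroblast gene LUM had 120 to 275, and the endothelial gene VWF had 67.5 in Vector replicate 2. Both fibroblast genes tested were called, LUM higher in shEZH2 (0.74) and COL1A2 lower (-0.83). Vector replicate 2 stood apart. It differed more than 2-fold from the mean of the other Vector libraries for 18.4% of the 15251 genes tested, against 1.63% to 3.93% for each other library within its own group. The results of the members are therefore given with and without it.

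In a dividing cell, the replication-dependent histone genes are switched on in S phase, when new DNA needs new nucleosomes. Their mRNAs are unusual because most end in a conserved stem-loop instead of a poly(A) tail. The stem-loop is bound by SLBP and cut with the help of the U7 small nuclear ribonucleoprotein, while NPAT and CASP8AP2 (FLASH) mark the nuclear bodies where this happens. Some clustered genes also give polyadenylated mRNAs, often in cells that divide slowly. These libraries were made from RNA purified on poly-T beads, so an mRNA without a poly(A) tail is measured only as far as it was carried through that step. Fewer mRNA molecules and fewer polyadenylated ones cannot be told apart in these values.

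The stem-loop was found in the annotated transcripts of all 43 members present in the transcript set of GENCODE v44 lifted to GRCh37. It was searched for by its known consensus of 16 bases, on the transcript strand. The same search found it in 122 of 19833 genes with a protein-coding transcript (0.615%), 65 of which carry a histone symbol. Its 16 bases took 6 forms, each shown here in at least 1 gene because those of the H4 genes were shared with no other class. Each line gives the stem-loop in capitals with the flanking bases on either side in lower case, as DNA letters, in the transcript that ends at it.
HIST1H1C: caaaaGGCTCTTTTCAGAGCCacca
HIST1H1E: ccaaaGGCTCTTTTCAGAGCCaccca
HIST3H2A: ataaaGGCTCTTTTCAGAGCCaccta
HIST1H2AC: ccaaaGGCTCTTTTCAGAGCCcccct
HIST2H2AC: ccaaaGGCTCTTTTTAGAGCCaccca
HIST1H2BK: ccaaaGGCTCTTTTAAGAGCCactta
HIST1H2BD: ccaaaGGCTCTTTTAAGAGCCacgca
HIST1H2BC: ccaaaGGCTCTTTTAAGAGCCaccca
HIST1H3H: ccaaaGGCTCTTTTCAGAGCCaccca
HIST1H3E: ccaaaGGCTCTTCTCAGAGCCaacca
HIST1H4I: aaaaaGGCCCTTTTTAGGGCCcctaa
HIST4H4: caaaaGGCCCTTTTCAGGGCCccca
The H4 genes, as in HIST1H4I and HIST4H4, carried C and G pairs in the stem (GGCCC before the loop) where H1, H2A, H2B and H3 genes carried GGCTC. The most common form, that of HIST1H1C, was shared by 23 members of the H1, H2A, H2B and H3 classes. The form of HIST1H2BK, HIST1H2BD and HIST1H2BC, which ends its loop with A, was shared by 8 members of the same classes. H2B genes thus carried either form, and the forms of HIST2H2AC and HIST1H3E were found in 1 member each.

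Not all annotated transcripts end there. Of the 49 members, 26 had only transcripts ending within 10 bases of the stem-loop. A further 15 had at least 1 such transcript and at least 1 that ran past it or lacked it, 2 had only longer ones, and 6 were not found in the transcript set. The mean normalized count had a median of 2.16 over the 26 members with only stem-loop ends and 25.2 over the 15 with both. Within the former, HIST1H2BK (442) and HIST1H1C (345), the highest members of all, HIST1H4I (161) and HIST1H1E (57.3) lay above the median of the latter, although their transcript in this set was the stem-loop form alone. The reads were counted on gene models of other lengths. For HIST1H4I the counted length was 1294 bases, against 397 for its transcript in this set. For HIST1H2BK, HIST1H1C and HIST1H1E it was shorter than the transcript (381 against 495, 642 against 731 and 754 against 787). Where the counted model is longer, as for HIST1H4I, counts can include reads outside the stem-loop form. The 2 medians mix 2 annotations.

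Upstream sequences are given for the 2 genes with the lowest log2 fold changes among the 16 members that had enough reads to be tested, HIST1H2BC and HIST1H2BD, and for the highest member, HIST1H2BK. HIST1H2BC and HIST1H2AC are transcribed away from each other, and the stretch printed lies between their starts, on the HIST1H2AC strand (chr6:26123927-26124171, plus strand). The HIST1H2BD stretch is the 250 bases before its start (chr6:26157871-26158120, plus strand), and the HIST1H2BK stretch likewise (chr6:27146859-27147108, minus strand). Sequences are from RefSeq, build GRCh38.p14. Capitals mark the octamer ATTTGCAT, known as an Oct-1 binding motif in H2B promoters, the CCAAT box and TATAAA, each on either strand, and neighbouring matches can run together.
HIST1H2BC to HIST1H2AC: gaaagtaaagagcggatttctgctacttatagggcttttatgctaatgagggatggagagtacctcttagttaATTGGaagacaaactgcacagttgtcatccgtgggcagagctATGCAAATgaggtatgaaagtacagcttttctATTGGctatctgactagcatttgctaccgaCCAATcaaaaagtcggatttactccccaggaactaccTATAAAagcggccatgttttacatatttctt
HIST1H2BD: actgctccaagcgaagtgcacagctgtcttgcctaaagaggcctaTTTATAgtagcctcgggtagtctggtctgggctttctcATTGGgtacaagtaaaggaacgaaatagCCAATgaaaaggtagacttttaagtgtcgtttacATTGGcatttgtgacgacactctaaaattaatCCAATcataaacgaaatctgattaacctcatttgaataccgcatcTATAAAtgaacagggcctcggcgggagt
HIST1H2BK: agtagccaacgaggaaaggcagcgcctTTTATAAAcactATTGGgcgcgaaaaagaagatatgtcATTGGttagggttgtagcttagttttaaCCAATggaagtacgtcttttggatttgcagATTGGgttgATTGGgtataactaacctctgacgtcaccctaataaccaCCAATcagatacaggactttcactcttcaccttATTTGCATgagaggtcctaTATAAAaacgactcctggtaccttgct
The octamer lay in the shared HIST1H2BC and HIST1H2AC stretch and in that of HIST1H2BK, and was not among the letters of the HIST1H2BD stretch. Over the RefSeq windows from 250 bases before to 50 after the start, it was in 8 of 12 H2B and 4 of 7 H2A genes with a window, in 0 of 5 H1, 0 of 10 H3 and 0 of 10 H4 genes, and in 1.80% of 27305 promoters in all. The CCAAT box was in every H1, H2A, H2B and H3 gene with a window (5, 7, 12 and 10 genes) and in 1 of 10 H4 genes, against 35.7% of all promoters, and TATAAA was in 29 of 44 members against 12.0%. A match describes the letters only.

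Most clustered histone genes were barely measured. Of the 49 members, 33 had a mean below the minimum of 10 normalized counts, with 2 to 55 reads over all 6 libraries and a median of 6. These were 10 of the 11 H3 genes, 8 of 11 H4, 7 of 14 H2B, 5 of 8 H2A and 3 of 5 H1. Together they held 3.42% of the members' 12582 reads. HIST1H3C, HIST1H4C and HIST1H2AE, from the core of the chromosome 6 cluster, had 6, 4 and 12 reads in all. HIST2H3A and HIST2H3C, and HIST2H4A and HIST2H4B, are near-identical copies with 96.2% to 100% of their 75-base windows shared with another member, so reads could not be placed between them. With so few reads a difference was not detectable. With no minimum applied, limma called HIST1H2BG higher (0, 0 and 0 reads in Vector, 1, 1 and 3 in shEZH2) and HIST3H3 lower (4, 4 and 3 reads against 1, 0 and 1), both on too few reads to give a fold change, with adjusted p-values of 0.299 and 0.193.

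The remaining 16 members reached the minimum and entered the test. They were chosen on the mean over all libraries, and are not all members. Per kb of gene length, HIST1H2BK was the highest at 1161 normalized counts per kb, followed by HIST1H1C (538) and HIST3H2A (326), then HIST1H2AC (134), HIST1H2BD (132) and HIST1H4I (124). The lowest was HIST1H2BH at 7.12. This ranking depends on the gene models counted. HIST1H2BK was counted over 381 bases, against 495 for its stem-loop transcript, and HIST1H2BH over 2060, against 462. The 5 genes with the most reads, HIST1H2BK, HIST1H1C, HIST3H2A, HIST1H2AC and HIST1H4I, held 72.0% of the members' reads. Of the 16, 11 lie in HIST1 on chromosome 6 between 26017085 and 27893843 (GRCh38, as in the table, the span of all 36 HIST1 members), 2 each in HIST2 and HIST3 on chromosome 1, and 1, HIST4H4, on chromosome 12. They shared at most 5.23% of their 75-base windows with another member, and 11 shared none.

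Between knockdown and control, 1 of the 16 was called at the study's threshold (unadjusted p under 0.05 and a change of more than 1.5-fold in limma). It was HIST1H2BC, which was lower. None was called higher. In such bulk libraries, fewer cells in S phase and less histone mRNA per cell cannot be told apart. Over all genes tested, 7.55% were called higher and 7.07% lower. After adjustment 0 of the 16 passed 0.05, against 4.12% of all genes, and 1 had an unadjusted p under 0.05 in limma, in edgeR and in DESeq2, HIST1H2BC in each, with 0 passing adjustment in either of the other tools. The median log2 fold change of the 16 was 0.06, beside 0.04 over all genes, with 9 above 0 and 7 below.

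Without Vector replicate 2, HIST1H2BC and HIST1H2BD were called lower and none higher, against 5.64% and 7.05% of all genes. After adjustment 4 of the 16 passed, HIST1H2BD, HIST1H1C, HIST3H2A and HIST1H2AC, all lower in shEZH2, where 18.9% of all genes passed. Over every alternative fit, including those that kept Vector replicate 2, the adjusted p ran from 0.00375 to 0.591 for HIST1H2BD, from 0.0235 to 0.996 for HIST1H1C, from 0.0455 to 0.974 for HIST3H2A and from 0.0424 to 0.988 for HIST1H2AC. The median of the 16 was -0.19 beside -0.01 for all genes, with 7 above 0 and 9 below. The direction changed between the fits for 8 of the 16 members and for 18.7% of all genes. That change was HIST1H1C, HIST3H2A, HIST1H2AC, HIST1H2BK and HIST1H4I from above to below 0, and HIST1H1E, HIST3H2BB and HIST4H4 from below to above 0.

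The linker histones, which bind the DNA between nucleosomes, were measured through HIST1H1C (H1.2) and HIST1H1E (H1.4). HIST1H1C had 473, 135 and 458 normalized counts in Vector replicates 1 to 3 and 379, 300.3 and 327 in the shEZH2 replicates. The knockdown values lay between Vector replicate 2 and the other 2 Vector libraries. The log2 fold change was 0.11 ± 0.45 with all 6 libraries and -0.48 ± 0.13 without Vector replicate 2, where limma gave an adjusted p of 0.0235. HIST1H1E had 31.4, 133 and 45.8 in Vector and 54.3, 42.3 and 37.2 in shEZH2. Here Vector replicate 2 was the highest of all libraries, opposite to HIST1H1C, and the remaining Vector values overlapped the knockdown ones. Its log2 fold change was -0.38 ± 0.50, and 0.21 ± 0.27 without that library. The summed level of the 5 H1 genes was 426 ± 134 in Vector and 383 ± 47.1 in shEZH2 (SD, n = 3 each), with 504 and 504 in Vector replicates 1 and 3 and 271 in Vector replicate 2.

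H2A, the partner of H2B in the nucleosome core, was measured mainly through HIST3H2A and HIST1H2AC. HIST3H2A had 409.9, 130.4 and 368 normalized counts in Vector and 336, 240.4 and 267 in shEZH2. HIST1H2AC had 278, 99.0 and 314 in Vector and 237, 215 and 200.5 in shEZH2. In both genes the 3 knockdown libraries were below Vector replicates 1 and 3 and above Vector replicate 2. The log2 fold changes were 0.04 ± 0.42 and 0.08 ± 0.41 with all libraries, and -0.48 ± 0.15 (limma adjusted p = 0.0455) and -0.44 ± 0.14 (adjusted p = 0.0424) without Vector replicate 2. HIST2H2AC, the third, had 16.7, 6.99 and 17.3 in Vector and 37.1, 15.2 and 12.4 in shEZH2. Its groups overlapped, with 1 knockdown library above the rest, and it did not pass in either fit (0.56 ± 0.52 and 0.17 ± 0.44). The 8 H2A genes summed to 561 ± 262 in Vector and 532 ± 79.8 in shEZH2.

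H2B was the best measured class, with 7 of 14 genes tested. HIST1H2BC had 46.0, 34.9 and 37.7 normalized counts in Vector and 19.0, 24.0 and 24.8 in shEZH2. The groups did not overlap, and Vector replicate 2 was close to Vector replicate 3. Its log2 fold change was -0.78 ± 0.25 (limma p = 0.0154, adjusted p = 0.126, exact two-sided permutation p = 0.1), and -0.86 ± 0.28 (adjusted p = 0.0501) without Vector replicate 2. It failed the adjustment in both fits, over all alternatives the adjusted p ran from 0.0501 to 0.318, and with Vector replicate 1 left out, at -0.67, it was not called. Groups that do not overlap were found for 34.8% of all genes and for 2 of the 16 members.

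HIST1H2BD fell without Vector replicate 2. It had 186, 80.3 and 149 normalized counts in Vector and 92.4, 90.2 and 91.7 in shEZH2, so the knockdown libraries were close together and stood between Vector replicate 2 and the other 2. Its log2 fold change was -0.51 ± 0.30 (limma adjusted p = 0.343) with all libraries and -0.86 ± 0.17 (adjusted p = 0.00375) without Vector replicate 2, the smallest adjusted p of any member in that fit. The gene overlaps LARP1P1 on its own strand and AL353759.1 on the other, which had 11 and 27 reads in all, and the counting strand is not stated in the sources used here.

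HIST1H2BK, the highest clustered histone gene, had 514, 250.3 and 559 normalized counts in Vector and 455, 419 and 455 in shEZH2. Its log2 fold change of 0.09 ± 0.29 turned to -0.28 ± 0.12 without Vector replicate 2 (limma adjusted p = 0.123). HIST2H2BE had 117, 93.1 and 117 in Vector and 87.6, 88.6 and 109.8 in shEZH2, with log2 fold changes of -0.19 ± 0.19 and -0.30 ± 0.18 in the fits with and without that library. The groups of both genes overlapped through Vector replicate 2, and neither passed adjustment.

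The other H2B genes lay on the other side of 0 without Vector replicate 2. HIST1H2BH, whose groups did not overlap, had 11.5, 11.6 and 9.16 normalized counts in Vector and 12.4, 22.4 and 21.0 in shEZH2, with a log2 fold change of 0.70 ± 0.35 (limma adjusted p = 0.280) and of 0.75 ± 0.40 without Vector replicate 2. It was called higher only when shEZH2 replicate 1, the lowest of the 3 knockdown libraries, was left out (0.95). HIST1H2BN had 46.0, 62.9 and 44.8 in Vector and 62.8, 65.5 and 58.2 in shEZH2, with log2 fold changes of 0.29 ± 0.21 and 0.44 ± 0.21. HIST3H2BB had 16.7, 46.6 and 19.3 in Vector and 26.7, 24.0 and 18.1 in shEZH2, with -0.13 ± 0.42 and 0.32 ± 0.33. The 14 H2B genes summed to 845 ± 191 in Vector and 774 ± 19.3 in shEZH2, and the class median log2 fold change was -0.13, or -0.28 without Vector replicate 2.

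H3, the histone whose lysines EZH2 methylates, was represented by HIST1H3H alone. It had 14.6, 18.6 and 12.2 normalized counts in Vector and 15.2, 19.2 and 23.9 in shEZH2. The groups overlapped, and the log2 fold change was 0.33 ± 0.32, or 0.48 ± 0.36 without Vector replicate 2. All 11 H3 genes together had 20 to 38 reads per library, the lowest of the 5 classes.

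H4 pairs with H3, and was measured through HIST1H4I, HIST4H4 and HIST1H4H. HIST1H4I had 188, 31.4 and 199 normalized counts in Vector and 199, 141 and 207 in shEZH2. Its log2 fold change of 0.76 ± 0.66, the highest of the 16 tested members, rested on Vector replicate 2 and was -0.10 ± 0.18 without it. HIST4H4 had 33.5, 75.7 and 25.5 in Vector and 31.4, 28.7 and 34.4 in shEZH2, with log2 fold changes of -0.35 ± 0.40 and 0.10 ± 0.27. HIST1H4H had 48.1, 19.8 and 37.7 in Vector and 36.2, 26.4 and 29.6 in shEZH2, with -0.11 ± 0.36 and -0.47 ± 0.27. None of the 3 passed in either fit. Vector replicate 2 was the lowest Vector library for HIST1H4I and HIST1H4H and the highest for HIST4H4.

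**Figure D1:**
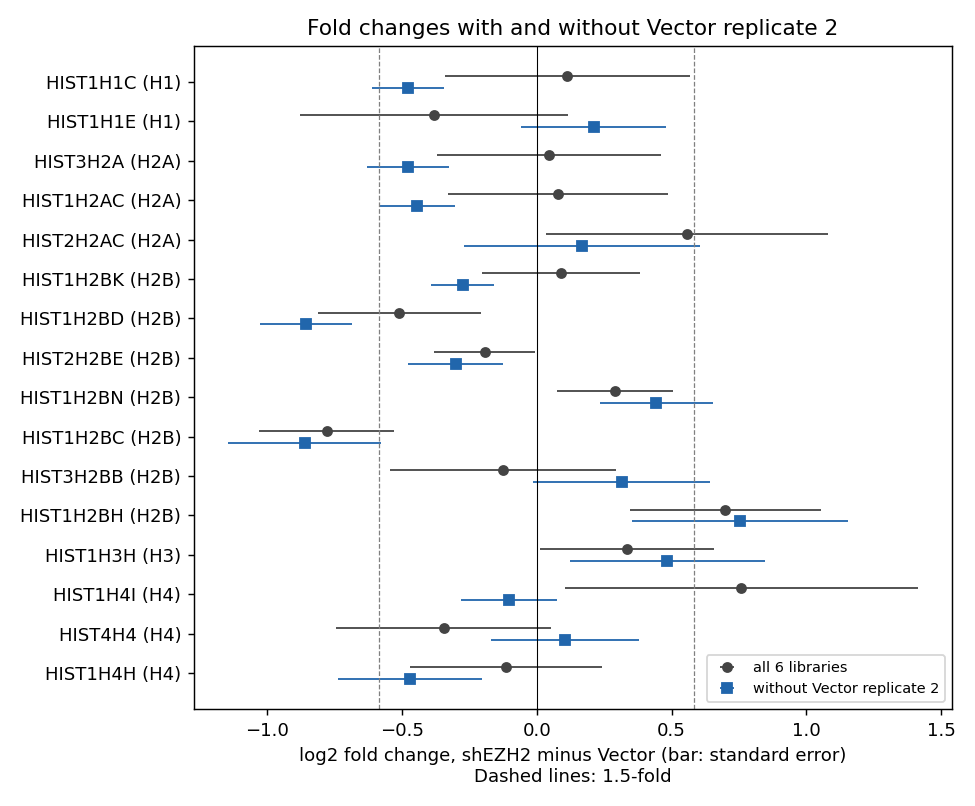
Log2 fold change (shEZH2 minus Vector) with its standard error for the 16 tested genes, in the fit on all 6 libraries (grey points) and without Vector replicate 2 (blue squares). Dashed lines mark 1.5-fold. HIST1H2BC and HIST1H2BD are below the lower line without Vector replicate 2 (-0.86 each), and HIST1H4I moves from 0.76 to -0.10.

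Summed over all 49 members, the level was 2506, 1332 and 2455 normalized counts in Vector replicates 1 to 3 and 2158, 1833 and 1975 in the shEZH2 replicates. The knockdown libraries were all below Vector replicates 1 and 3 and all above Vector replicate 2. The ratio of the means was 0.948 with all libraries and 0.802 without Vector replicate 2. By class, the ratio without it was 0.759 for H1, 0.746 for H2A, 0.810 for H2B, 0.954 for H4 and 1.26 for H3, and with it 0.897, 0.947, 0.915, 1.14 and 1.13. In reads, the 49 members took 1144 to 2411 per library.

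The position of Vector replicate 2 differed among the members. Of the 16, it was below the mean of Vector replicates 1 and 3 for 10 and above it for 6, with 11 more than 2-fold apart. Over all genes tested it was below that mean for 51.5%, and more than 2-fold apart for 18.4%. The 10 had a median gene length of 883 bases and the 6 a median of 2212 bases, where all genes tested had a median of 4622. The genes HIST1H1C, HIST1H2AC, HIST1H2BC, HIST1H2BD, HIST1H2BK and HIST2H2BE, which are known to give polyadenylated mRNA as well, were below in 6 of 6 cases. Their sum was 1615, 693 and 1634 normalized counts in Vector and 1270.2, 1137 and 1209 in shEZH2. The other 10 tested members summed to 817, 537 and 778 in Vector and 811, 625 and 709 in shEZH2, and were below in 4 cases. What length or polyadenylation contributed was not tested. With a gene length trend removed in each library, HIST1H2BC and HIST1H2BD were called lower in the fit on all 6 libraries (-0.93 and -0.66). Of the RNAs without a poly(A) tail on a list of 17, 2 were measured above the minimum. RN7SL2, the RNA of the signal recognition particle, had 9679, 6675 and 9743 in Vector and 15351, 3281 and 6421 in shEZH2, and SNORA73B 27.2 to 44.2 in all libraries.

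Among H2A and H2B genes that face away from each other less than 1000 bases apart, 3 pairs had both genes tested. HIST1H2BC and HIST1H2AC, which share the upstream stretch printed above, start 218 bases apart in the table and had 37.3 and 134 normalized counts per kb. Both were lower without Vector replicate 2 (-0.86 and -0.44). HIST2H2BE and HIST2H2AC had like levels per kb (46.6 and 45.2) and log2 fold changes of -0.30 and 0.17 in that fit. Their mean normalized counts were unlike, 102 and 17.6, over counted lengths of 2194 and 390 bases. HIST3H2A was 30.6 times as high per kb as its neighbour HIST3H2BB, and their log2 fold changes were -0.48 and 0.32. Their mean normalized counts were 292 and 25.2, over 895 and 2364 bases. Levels per kb within a pair thus depend on the gene models counted. The differences within pairs were not tested.

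The histone genes on a list of replication-independent ones serve for comparison. Of 12 such genes 9 were tested, and none was called in either fit. After adjustment 0 passed with all libraries and 3 without Vector replicate 2, against 4.12% and 18.9% of all genes. The median log2 fold change turned from 0.22, with 8 genes above 0 and 1 below, to -0.15, with 4 above and 5 below, when that library was left out. H2AFZ, which encodes H2A.Z, had 5299, 1268 and 5383 normalized counts in Vector and 7586, 6997 and 6674 in shEZH2. The groups did not overlap, and it was 1.10 ± 0.52 on the log2 scale (limma adjusted p = 0.254), or 0.41 ± 0.09 (adjusted p = 0.00916) without Vector replicate 2. H2AFY, encoding macroH2A1, was 0.31 ± 0.12, or 0.29 ± 0.09 (limma adjusted p = 0.0455). H3F3A, one of the genes for H3.3, was 0.09 ± 0.31, or -0.30 ± 0.09 (adjusted p = 0.0373), and H3F3B, the other, 0.13 and -0.22. H2AFV and H2AFX were 0.40 and 0.32, or 0.11 and 0.08 without Vector replicate 2. CENPA and H1FX, at 0.22 and 0.15, were -0.16 and -0.15 without it, and H1F0 went from -0.07 to -0.22. Vector replicate 2 was below the mean of the other Vector libraries for 9 of the 9 genes, against 51.5% of all genes tested.

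Genes that transcribe and process histone mRNA were also compared, 19 of a list of 21 being tested. In this list 1 gene was called higher and 2 lower, both with all libraries and without Vector replicate 2. Over all genes tested, the shares were 7.55% and 7.07% with all libraries, and 7.05% and 5.64% without Vector replicate 2. NPAT, the coactivator of histone gene transcription that is phosphorylated by cyclin E and CDK2, had 488, 690.4 and 447 normalized counts in Vector and 249, 328 and 286 in shEZH2. Its groups did not overlap, and its log2 fold change was -0.89 ± 0.20 (limma adjusted p = 0.0552), or -0.71 ± 0.14 (adjusted p = 0.00405) without Vector replicate 2. CASP8AP2 (FLASH) had 271, 309 and 257 in Vector and 161, 192 and 139 in shEZH2, with -0.77 ± 0.17 (limma adjusted p = 0.0536), or -0.69 ± 0.16 (adjusted p = 0.00940). E2F1, a transcription factor of the entry into S phase, had 810.4, 771 and 777 in Vector and 1813, 1501 and 1706 in shEZH2. It rose by 1.09 ± 0.13 (limma adjusted p = 0.00984), and by 1.07 ± 0.11 without Vector replicate 2, while over all alternatives the adjusted p reached 0.1001.

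Unlike CASP8AP2, the processing factors SLBP, LSM10, LSM11 and ZNF473 were not called. SLBP, which binds the stem-loop, had 874, 458 and 847 normalized counts in Vector and 939.8, 941 and 972 in shEZH2. Its log2 fold change was 0.45 ± 0.25, or 0.14 ± 0.10 without Vector replicate 2. LSM10 and LSM11, proteins of the U7 particle, were 0.21 ± 0.42 and -0.06 ± 0.14. In the fit without Vector replicate 2 they were -0.32 ± 0.12 and -0.01 ± 0.12. ZNF473, the zinc finger protein bound to U7, was -0.52 ± 0.17 (limma adjusted p = 0.136), or -0.41 ± 0.14 (adjusted p = 0.0539). The median of the 19 genes was -0.04, or -0.02 without Vector replicate 2.

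Of 21 histone chaperone and import genes, all tested, 1 was called higher and 2 lower with all libraries, and 1 higher and 3 lower without Vector replicate 2, where 7 passed adjustment against 3. The gene added was ASF1A, a chaperone of H3 and H4, with log2 fold changes of -0.37 ± 0.30 and, without that library, -0.73 ± 0.14. Over all genes tested, 7.55% were called higher and 7.07% lower, or 7.05% and 5.64% without Vector replicate 2. The shares of all genes passing adjustment were 4.12% and 18.9%. CHAF1B, a subunit of CAF-1, which deposits H3 and H4 behind the replication fork, had 196, 165 and 164 normalized counts in Vector and 275, 298 and 312 in shEZH2, and rose by 0.75 ± 0.15 (limma adjusted p = 0.0367), or 0.72 ± 0.14 without Vector replicate 2. SSRP1, a subunit of FACT, which handles H2A and H2B, had 7051, 9060.3 and 6762 in Vector and 4237, 4349 and 4720.3 in shEZH2, and fell by 0.77 ± 0.16 (adjusted p = 0.0436). ATRX, which deposits H3.3 with DAXX, had 870.0, 1762 and 839.99 in Vector and 385, 486 and 439 in shEZH2, and fell by 1.32 ± 0.29 (limma adjusted p = 0.0499). Without Vector replicate 2, the highest Vector library for SSRP1 and ATRX, the log2 fold changes were -0.64 ± 0.09 and -0.97 ± 0.13. With single libraries left out the adjusted p of these 3 genes reached 0.194 to 0.217.

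A list of S phase genes, which includes genes of replication licensing, was compared as well. Of 21 genes, 11 were called higher and 0 lower, and 9 and 0 without Vector replicate 2, with median log2 fold changes of 0.69 and 0.57. After adjustment 5 passed with all libraries and 15 without Vector replicate 2, against 4.12% and 18.9% of all genes. Over all genes tested, 7.55% were called higher and 7.07% lower, or 7.05% and 5.64% without Vector replicate 2. MCM6, a subunit of the replicative helicase, had 533, 459.9 and 576 normalized counts in Vector and 1567, 1711 and 1694 in shEZH2, and rose by 1.67 ± 0.14 (limma adjusted p = 0.00317). RRM2, of ribonucleotide reductase, had 617, 489 and 538 in Vector and 1235, 1348 and 1297 in shEZH2, and rose by 1.24 ± 0.14 (adjusted p = 0.00805). MCM3, MCM5 and CDT1, of replication licensing, also passed adjustment, with log2 fold changes of 0.82, 0.69 and 0.75. Without Vector replicate 2 the log2 fold changes of MCM6, RRM2, MCM3, MCM5 and CDT1 were 1.58, 1.17, 0.70, 0.69 and 0.80. With single libraries left out, the adjusted p reached 0.0508 for MCM6, 0.0921 for RRM2 and 0.204 for MCM5, the highest of these 5 genes. With all libraries, CCNE1, CCNE2, GINS2, CDC45, TYMS and PCNA were called higher without passing adjustment, from 0.69 for CDC45 to 1.55 for CCNE2. Without Vector replicate 2 each of these genes passed adjustment (limma adjusted p from 0.000999 for GINS2 to 0.00709 for CCNE2). There CCNE1, CCNE2 and GINS2 were 0.82, 1.71 and 0.89. PCNA had 466 normalized counts in Vector replicate 2 against 1249.6 and 1295 in the other Vector libraries. Its log2 fold change went from 0.92 to 0.44 without that library, where CDC45 and TYMS were at 0.57 each. PCNA, CDC45 and TYMS were not called there because they fell short of the fold change threshold. The difference between this list and the clustered histone genes was not tested.

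**Figure D2:**
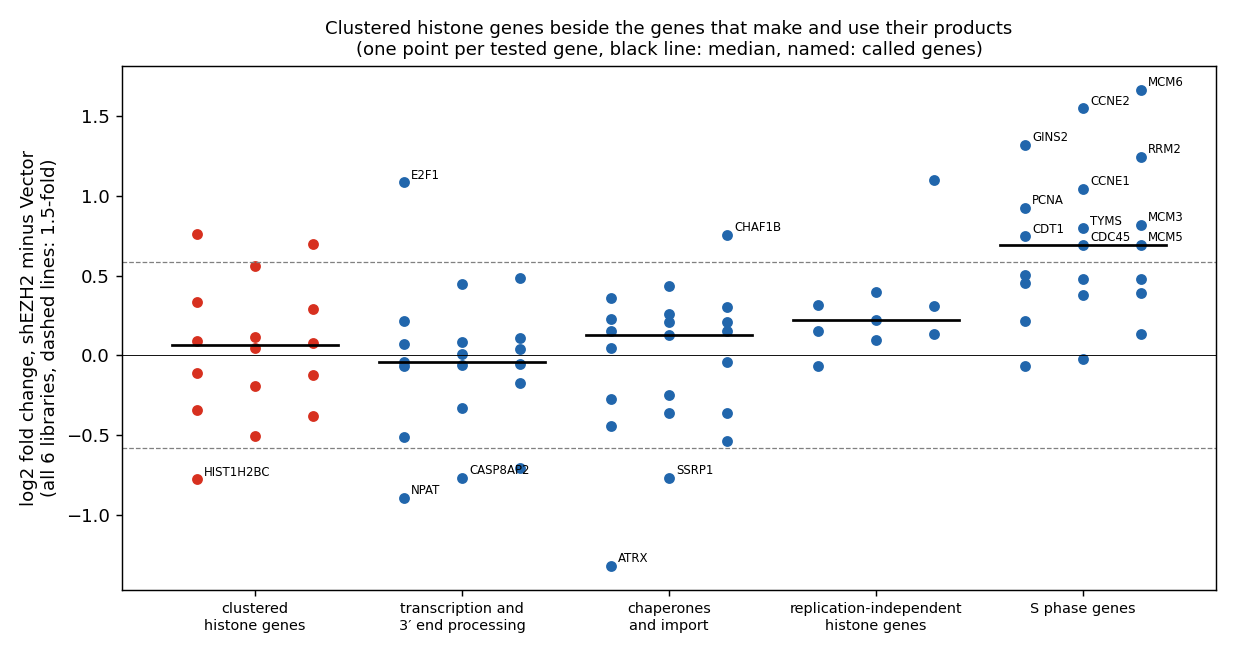
Log2 fold change (shEZH2 minus Vector, all 6 libraries) of the tested clustered histone genes (red) and of 4 comparison lists (blue), with the median of each as a black line. Called genes are named. The medians are 0.06 for the clustered histone genes, -0.04 for transcription and processing, 0.13 for chaperones, 0.22 for replication-independent histones and 0.69 for S phase genes, and without Vector replicate 2, which is not plotted, they are -0.19, -0.02, 0.04, -0.15 and 0.57.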

How the data were processed

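RNA-seq of 3 Vector and 3 shEZH2 libraries was analysed from 1 deposited table of 30015 genes. The authors purified mRNA on poly-T beads, used FeatureCounts (v1.5.0-p3) for the gene counts and DESeq2 1.20.0, per the labels. The deposited values are a signal, the counts of each gene divided by 1 size factor per library by the authors. The gene length column of the table is in bases. The aligner is not given in the sources used here. In each library 100% of values were whole multiples of the value of 1 read (tolerance 0.01), which gave back the reads (13400290 to 19128939 per library). The table also holds the authors' fold changes and p-values, which were not used, and 0 columns of single libraries were left out. The labels name hg19, but 47.7% of 20633 genes share an end with RefSeq GRCh38.p14 and 0.708% with GENCODE v44 lifted to GRCh37, so coordinates are given as GRCh38.

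Groups were compared with limma 3.58.1 (trended variance) after adding 1 to each normalized count and taking log2. Only the 15251 genes averaging 10 or more were tested. The added 1 means that fold changes of low genes are understated. Calls needed an unadjusted p under 0.05 and a log2 fold change over 0.585 in size, as in the study's methods. Benjamini-Hochberg adjustment ran over all genes tested. The alternatives were edgeR 4.0.16 (TMM and RLE factors) and DESeq2 1.42.0 on the recovered reads, TMM scaling, a pseudocount of 0.1 or 5, a minimum mean of 50 or none, a replicate block, removal of a gene length trend by loess, and each library left out. The fits were tested on simulated data.

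The named genes are the members called with or without Vector replicate 2, the 3 highest members of each class, the replication-independent histone genes tested, the called genes of the other lists, and NPAT, CASP8AP2, SLBP, LSM10, LSM11, ZNF473 and EZH2. The remaining tested members and the marker genes PMEL, MLANA, TYRP1, TYR, CDH1, LUM, COL1A2 and VWF were added. The members and lists were chosen with earlier results of these data known. Transcript ends were read by gene ID from GENCODE v44 lifted to GRCh37, and promoters for 44 of 49 members from RefSeq. Members missing from the lifted set were not searched for stem-loops. R 4.3.3, Python 3.11.15, pandas 2.3.3 and matplotlib 3.10.9 were used.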

Additional observations from a re-analysis of the deposited data

How the results depend on the processing

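The count of clustered histone genes called lower, 1 with all libraries, was 2 with the gene length trend removed or with no minimum, 0 with a mean of at least 50 (9 members tested, HIST1H2BC not among them) or with the fold change threshold joined to the adjusted p, and 0 to 2 with each library left out, 0 without Vector replicate 1 and 2 without Vector replicate 2. The count called higher, 0, was 1 with no minimum and 0 to 1 with each library left out. The count passing adjustment, 0, ran from 0 to 4 with each library left out, 4 without Vector replicate 2 and 0 without any other. The member median ran from -0.19 to 0.23 with libraries left out. The H1 median, -0.13, was -0.39 with DESeq2, -0.39 with edgeR RLE factors, -0.37 with edgeR TMM factors and 0.11 with no minimum. The H2A median, 0.08, ran from -0.44 without Vector replicate 2 to 0.38 without Vector replicate 3, and was below 0 with DESeq2 (-0.094), edgeR (-0.097 with RLE, -0.086 with TMM) and the length trend removed (-0.11). The H2B median was -0.35 with the length trend removed. The H4 median was 0.76 with a mean of at least 50, where HIST1H4I was the only H4 gene left, and ran from -0.24 to 0.15 with libraries left out. Over all genes, 629 passed adjustment with all libraries, 1644 with DESeq2, 1307 with the length trend removed, and 4 to 2875 with a library left out. The 33 untested members had few reads, none more than 55, and what kept them low was not tested. The cause of these moves was not tested beyond the fewer or more genes entering the medians.

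Direction was reversed for the following genes, among them HIST1H4I, HIST1H1E and HIST4H4, which were 0.76, -0.38 and -0.35 with all libraries. HIST3H2A was -0.12 with DESeq2 and with edgeR RLE, -0.11 with edgeR TMM and -0.11 with the length trend removed. HIST1H2AC was -0.094 with DESeq2, -0.097 with RLE, -0.086 with TMM and -0.16 with the length trend removed. HIST1H1C was -0.094 with DESeq2, -0.097 with RLE, -0.087 with TMM and -0.0029 with the length trend removed. HIST1H2BK was -0.0082 with DESeq2 and -0.0089 with RLE. H3F3A was -0.017 with DESeq2 and RLE, -0.0052 with TMM and -0.071 with the length trend removed, where H1FX was -0.079, CENPA -0.021 and LSM10 -0.019. With each library left out, the ranges were -0.81 to 0.21 for HIST1H1E, -0.66 to 0.10 for HIST4H4, -0.10 to 1.21 for HIST1H4I, -0.40 to 0.32 for HIST3H2BB, -0.47 to 0.15 for HIST1H4H, -0.48 to 0.34 for HIST3H2A, -0.44 to 0.38 for HIST1H2AC, -0.48 to 0.42 for HIST1H1C, -0.28 to 0.30 for HIST1H2BK, -0.30 to 0.31 for H3F3A, -0.22 to 0.32 for H3F3B, -0.22 to 0.0040 for H1F0, -0.15 to 0.32 for H1FX, -0.16 to 0.43 for CENPA, -0.32 to 0.51 for LSM10 and -0.11 to 0.030 for LSM11. Libraries with the same replicate number had correlations of 0.28, 0.22 and -0.11 in their departures from the group means. Correlations between different numbers were not computed, so whether the numbers pair the libraries was not decided. With the replicate block the counts of members called were 0 higher and 1 lower and the member median 0.06. H2AFZ (1.10) passed the study's threshold there, as it did with no minimum, with the length trend removed (0.87), and without Vector replicate 1 or 3 (1.44 and 1.45).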
